A study of Mus musculus with 9 samples.

Results

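The 10 CC chemokine genes Ccl2, Ccl3, Ccl4, Ccl5, Ccl6, Ccl7, Ccl8, Ccl9, Ccl12 and Ccl24 were followed by their symbols among the 24411 genes of the expression table, in 9 lines of mouse macrophages. The YS lines had been grown from yolk sac of E9.5 embryos, the FL lines from fetal liver of E14.5 embryos and the BM lines from bone marrow of adult mice, all of the C57BL/6 strain and without genetic modification, with 3 lines in each group. All lines were kept in RPMI medium with 10% fetal calf serum and 100 ng/mL recombinant human M-CSF, the growth factor that macrophages need to survive and divide, and no group received another stimulus. The starting cells of a tissue were pooled from several mice and a line was a bulk culture from its own dish or well, so p-values measure the spread between cultures and not between animals. Poly(A) RNA of each line was sequenced once, and the values are TPM, transcript abundances in which reads are divided by transcript length and every library has the same total. Levels of different genes can therefore be set side by side, but the depth of a library is unknown and no counting error or detection limit can be given.

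CC chemokines are small secreted proteins that attract leukocytes through receptors of the Ccr family. Ccl2, Ccl7, Ccl8 and Ccl12 are monocyte chemoattractant proteins, and Ccl2, Ccl7 and Ccl12 act on Ccr2, the receptor that draws inflammatory monocytes out of blood and marrow. Ccl3 and Ccl4 are the macrophage inflammatory proteins of type 1, and Ccl3, Ccl5, Ccl6 and Ccl9 are ligands of Ccr1. Ccl24 is an eotaxin that acts on Ccr3 of eosinophils. Macrophages are a main source of most of them, and NF-kB is a known activator of several of their promoters.

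The macrophage identity of the lines could be read from 9 markers, all of which reached 1 TPM. These were Csf1r, Adgre1, Itgam, Cd68, Mertk, Spi1, Lyz2, Ptprc and Fcgr1. Fcgr1 was between 110.13 and 329.94 TPM in YS and FL lines but between 1.68 and 42.1 TPM in BM lines. T and NK cell markers were at 0 in every line, and no mast cell, B cell or fibroblast marker reached 1 TPM. Some markers of other cells moved with the groups. The 4 endothelial markers summed to between 5.37 and 56.04 TPM in YS lines, between 18.88 and 51.78 TPM in the FL lines and between 0.08 and 1.7 TPM in BM lines. Kdr made up most of the sum in the FL lines and in YS lines 2 and 3, while Pecam1, at 4.91 and 8.17 TPM in YS lines 1 and 2, did not exceed 0.56 TPM elsewhere, Cdh5 did not exceed 1.38 TPM and Tek did not exceed 0.04 TPM. The 6 erythroid and megakaryocyte markers summed to 235.51 to 2122 TPM, 615.52 to 1730 TPM and 39.05 to 608 TPM in YS, FL and BM lines, mostly from Pf4, with Hbb-bs at 0 throughout and Hba-a1 at 214.99 TPM in BM line 2 alone. The 5 granulocyte markers in the table summed to 0.06 to 2.46 TPM in YS, 10.49 to 25.6 TPM in FL and 3.66 to 5.0 TPM in BM lines, where S100a8 alone reached 1 TPM and S100a9 and Elane were at 0, and the 4 markers of hepatocytes and yolk sac endoderm to 2.34 to 11.99, 9.51 to 21.35 and 5.44 to 15.76 TPM. Of the 4 dendritic cell markers Zbtb46 alone reached 1 TPM, and the sum was 6.82 to 7.86 TPM in YS, 2.57 to 6.59 TPM in FL and 2.82 to 3.24 TPM in BM lines. In bulk RNA, fewer cells that transcribe a gene and less transcript in each cell cannot be told apart, and the part of these markers in the results below was not tested.

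In all, CC chemokine mRNA was more abundant and of another makeup in the embryo-derived lines than in the marrow-derived lines. The 10 genes summed to 1280, 1911 and 5132 TPM in YS lines 1, 2 and 3, to 3685, 1434 and 3276 TPM in FL lines 1, 2 and 3, and to 1056, 1174 and 1235 TPM in BM lines 1, 2 and 3. BM lines were the lowest 3 of the 9, but YS line 1 was close to BM line 3. YS line 3 held more than any other line. The sums were not tested. Ccl9 was the highest of the 10 genes in every BM line, where it made up between 41.18% and 51.69% of the sum. Ccl2 was the highest in every FL line. In YS lines the highest gene was Ccl3 in lines 1 and 2, but Ccl12 in line 3.

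**Figure D1:**
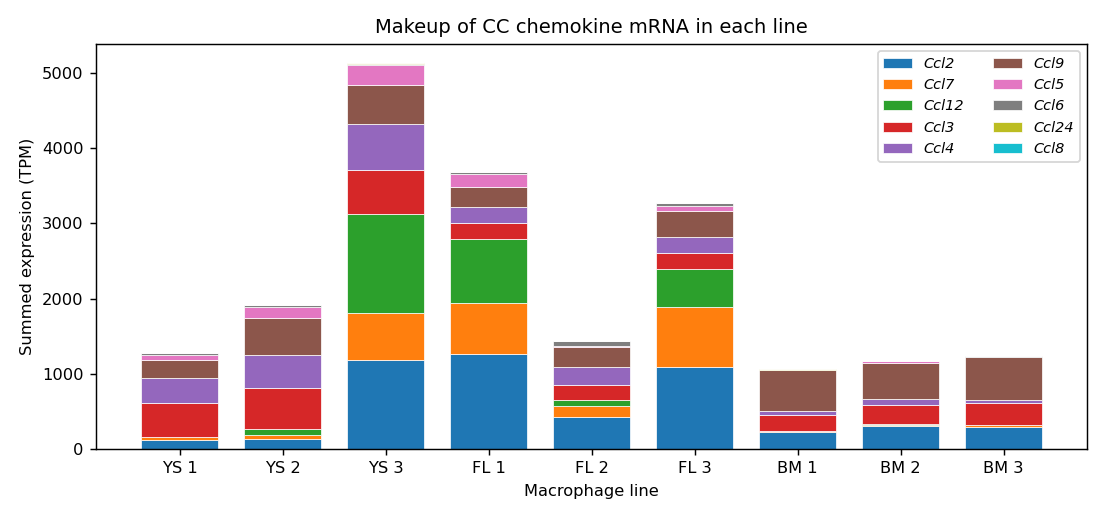
Stacked bars give the TPM of each of the 10 CC chemokine genes in each of the 9 macrophage lines, 1 library per line, with the bar's height as their sum. The bars of YS line 3, FL line 1 and FL line 3 reach 5132, 3685 and 3276 TPM, mostly through Ccl2, Ccl7 and Ccl12, while the BM bars stay between 1056 and 1235 TPM with Ccl9 as the largest part.

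The comparisons between groups asked which chemokine genes differed between lines of different tissues after long culture with the same medium and growth factor. By the paper's methods, seeding vessel, cell density and time to stable growth varied with the tissue. Origin and the way the lines were derived therefore cannot be told apart. They used limma on log2(TPM + 1) over all 9 lines, and a gene was called where the groups differed by over 2-fold with an adjusted p below 0.1, the false discovery rate. Of the 10 genes, 9 passed the filter of at least 1 TPM in at least 3 lines, which 11753 genes passed. Ccl8 did not. Against BM lines, 6 of the 9 were called higher in YS lines (Ccl3, Ccl4, Ccl5, Ccl6, Ccl12 and Ccl24) and 5 in FL lines (Ccl4, Ccl5, Ccl6, Ccl7 and Ccl12), and none lower. Ccl24 reached 1 TPM in no BM line, and Ccl12 only in BM line 2 (8.85 TPM). Both passed the filter through the YS and FL lines. The direction of their differences from BM lines, in the counts and medians given here, was therefore largely set by the filter. Of all tested genes, the YS lines were called higher than BM lines in 7.57% and lower in 5.22%, and the FL lines in 6.01% and 4.30%. Between YS and FL lines, 2 of the 9 were called, Ccl3 and Ccl4, both higher in YS lines, where the background was 1.95% higher and 1.85% lower. The median log2 difference of the 9 genes was 1.87 in YS against BM lines, 2.05 in FL against BM lines and 0.45 in YS against FL lines, beside 0.11, 0.09 and 0.02 over all tested genes. The first 2 comparisons share the BM lines and are not independent of each other. The values of the groups did not overlap for 7 of the 9 genes in each of the comparisons with BM lines and for 2 of 9 between YS and FL lines, and over all tested genes this held for 49.0%, 49.5% and 26.1%.

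**Figure D2:**
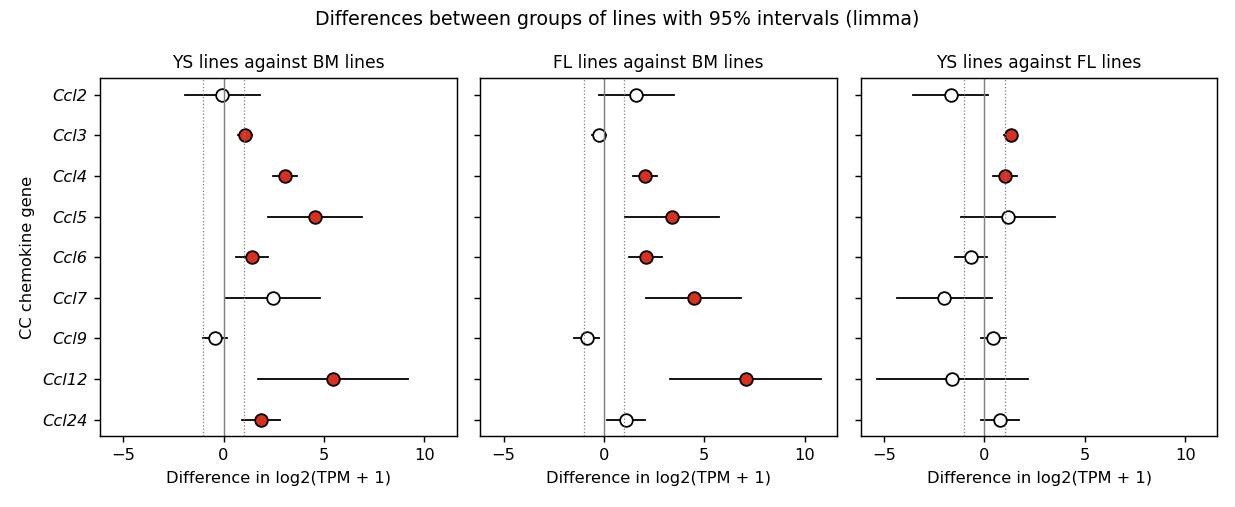
For the 9 CC chemokine genes that passed the filter, points give the difference in mean log2(TPM + 1) between 2 groups of 3 lines each and bars its 95% interval in limma, with red points for called genes and dotted lines at a 2-fold change. Intervals are narrow for Ccl3, where the YS against BM difference is 1.07, and wide for Ccl12, where it is 5.45.

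Ccl3 and Ccl4 were highest in the YS lines, with the groups apart in both comparisons of YS lines. Ccl3 was 445.22, 541.48 and 591.25 TPM in YS lines 1, 2 and 3, 217.43, 197.73 and 215.84 TPM in the FL lines and 211.76, 253.47 and 287.5 TPM in BM lines. All YS lines stood above all others, and FL and BM lines overlapped. Ccl3 was 2.09-fold higher in YS than in BM lines (95% interval 1.67 to 2.63, adjusted p = 0.0026 in limma), just past the threshold of 2-fold, and 2.48-fold higher than in FL lines (1.97 to 3.12, adjusted p = 0.00621). Its FL against BM log2 difference was -0.24 (-0.57 to 0.09, adjusted p = 0.279). The first of these calls fell under 2-fold when values were rescaled by median-of-ratios factors (log2 difference 0.95), without YS line 3 (0.98) or without BM line 1 (0.95).

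Ccl4 separated all 3 groups. It was 332.14, 445.24 and 601.13 TPM in YS lines 1, 2 and 3, 206.56, 234.11 and 216.23 TPM in the FL lines and 48.39, 74.63 and 39.2 TPM in BM lines, and the groups did not overlap. Ccl4 was 8.42-fold higher in YS than in BM lines (5.57 to 12.7, adjusted p = 0.000448 in limma) and 4.13-fold higher in FL than in BM lines (2.73 to 6.25, adjusted p = 0.00165). The difference of 2.04-fold between YS and FL lines (1.35 to 3.08, adjusted p = 0.0612) was near both thresholds. That call was lost without YS line 3, without FL line 1, 2 or 3, and without BM line 1, with log2 differences of 0.81 to 1.08 and adjusted p of 0.0962 to 0.162.

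Ccl3 and Ccl4 lie next to each other on chromosome 11 in the RefSeq gene order of GRCm38.p6, and their proteins are close relatives, yet their ratio was not the same in all groups. TPM of Ccl4 divided by that of Ccl3 in the same library was between 0.746 and 1.02 in YS lines, between 0.95 and 1.18 in FL lines and between 0.136 and 0.294 in BM lines. BM lines thus held about as much Ccl3 as FL lines with less Ccl4. RefSeq has Ccl3 and Ccl4 overlap, while their GENCODE M21 transcripts share no stretch of 75 bases, the read length, on either strand. The strand setting and the annotation of the authors' counting were not given in the sources used here, so reads of the overlap could have gone to either gene in every library.

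**Figure D3:**
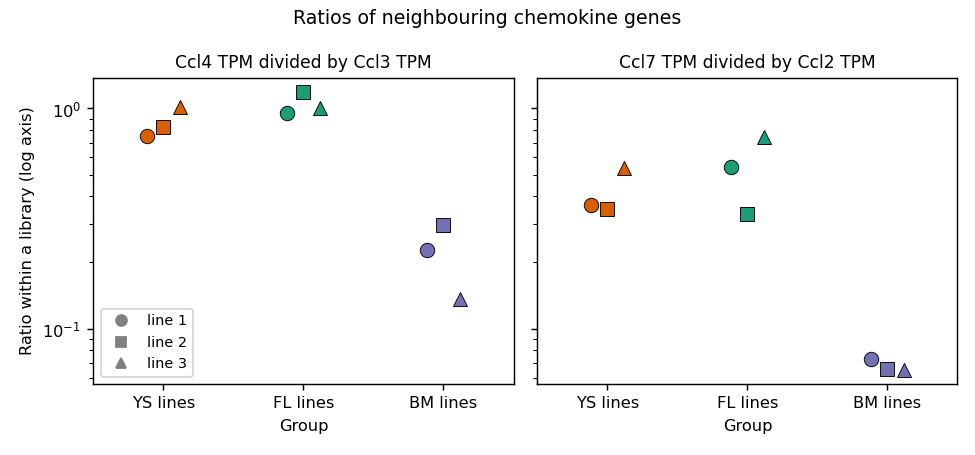
TPM of Ccl4 divided by Ccl3 (left) and of Ccl7 divided by Ccl2 (right) within each library on a shared log axis, with 1 point per line and 3 lines per group. The BM points lie at 0.136 to 0.294 and at 0.065 to 0.073, below every YS and FL point.

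Ccl2, Ccl7 and Ccl12 differed widely among YS lines and among FL lines, whereas Ccl2 and Ccl7 varied little among BM lines. Ccl2 was 111.73, 133.37 and 1178 TPM in YS lines 1, 2 and 3, 1259, 425.36 and 1083 TPM in the FL lines and 223.73, 303.22 and 296.31 TPM in BM lines. YS lines 1 and 2 were therefore below every BM line, whereas YS line 3 was among the FL lines. Ccl2 was called in no comparison, and its YS against BM log2 difference of -0.06 (-1.93 to 1.81, adjusted p = 0.964 in limma) averaged lines on both sides of the BM level. Its FL against BM log2 difference was 1.61 (-0.26 to 3.48, adjusted p = 0.208), although FL and BM lines did not overlap. These results depended on YS line 3. Without it, Ccl2 was called lower in YS than in BM lines (log2 difference -1.15, adjusted p = 0.0793 in limma), lower in YS than in FL lines (-2.76, adjusted p = 0.0284) and higher in FL than in BM lines (1.61, adjusted p = 0.0209). YS line 3 enters the FL against BM test only through the spread estimate shared by all groups. With only the FL and BM lines in the fit, Ccl2 was also called higher in FL lines (adjusted p = 0.026 in limma).

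Ccl7, the gene next to Ccl2, had the same high and low lines but not the same level in BM lines. It was 40.55, 46.71 and 630.91 TPM in YS lines 1, 2 and 3, 682.96, 141.08 and 807.12 TPM in the FL lines and 16.36, 19.92 and 19.25 TPM in BM lines. Every YS and FL line was above every BM line. Ccl7 was 22.0-fold higher in FL than in BM lines (4.34 to 112, adjusted p = 0.0179 in limma), a log2 difference of 4.46 that was 5.26 without FL line 2. Its 5.54-fold difference between YS and BM lines (1.09 to 28.2, adjusted p = 0.106) missed the threshold, which it passed without YS line 1, YS line 2 or FL line 2 (adjusted p = 0.0676, 0.0858 and 0.0849), and it was 1.195 on the log2 scale without YS line 3. Between YS and FL lines the log2 difference was -1.99 (-4.33 to 0.35, adjusted p = 0.258), and without YS line 3 it was called at -3.27 (adjusted p = 0.0447). The ratio of Ccl7 to Ccl2 TPM in a library was between 0.35 and 0.536 in YS lines, between 0.332 and 0.745 in FL lines and between 0.065 and 0.0731 in BM lines. BM lines thus had more Ccl2 than YS lines 1 and 2 but less Ccl7.

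Ccl12 had the widest range of all 10 genes. It was 11.16, 82.86 and 1317 TPM in YS lines 1, 2 and 3, 847.54, 86.99 and 498.85 TPM in the FL lines, and in the BM lines it was 8.85 TPM in line 2, 0.63 TPM in line 3 and listed at 0 in line 1. The lowest YS line stood only just above the highest BM line. As BM line 2 alone of the BM lines reached 1 TPM, Ccl12 passed the filter through the YS and FL lines. On the log2(TPM + 1) scale Ccl12 was higher by 5.45 in YS than in BM lines (1.70 to 9.20, adjusted p = 0.0396 in limma) and by 7.05 in FL than in BM lines (3.30 to 10.80, adjusted p = 0.0186). These values depend on the pseudocount, since BM lines are near 0, and with 0.1 or 4 in place of 1 they were 6.95 and 4.28 in YS and 8.58 and 5.77 in FL lines, all called. The call for YS lines was lost without BM line 1 (4.78, adjusted p = 0.13) or BM line 3 (5.14, adjusted p = 0.119), and its value was 3.66 without YS line 3 and 7.04 without YS line 1, both called. The call for FL lines held without any 1 line, at 6.38 without FL line 1 or BM line 1 and 8.01 without FL line 2. YS and FL lines differed by -1.60 (-5.35 to 2.15, adjusted p = 0.566), an interval that allows a large difference either way.

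The spread of these genes within groups was a feature of its own. The SD among lines of a group, pooled over the 3 groups on the log2(TPM + 1) scale, was 2.41 for Ccl12, the rank 18 value of 11753 tested genes, 1.509 for Ccl7 (rank 151), 1.503 for Ccl5 (rank 152) and 1.202 for Ccl2 (rank 321). The median gene had 0.23. Ccl3 was below that with 0.18, and Ccl4, Ccl9, Ccl6 and Ccl24 lay between 0.37 and 0.55. By group, the SD of Ccl2 was 1.89 in YS, 0.85 in FL and 0.24 in BM lines, and that of Ccl7 was 2.21, 1.38 and 0.14. Ccl12 had 3.40, 1.71 and 1.74 in YS, FL and BM lines, and Ccl5 had 1.05, 1.66 and 1.71. Together, Ccl2, Ccl7 and Ccl12 made up 60.91% of the chemokine sum in YS line 3, 75.7% in FL line 1 and 72.93% in FL line 3, against 12.77% and 13.76% in YS lines 1 and 2, 45.58% in FL line 2 and 22.74% to 28.28% in BM lines. Kdr, the endothelial marker with the highest level, was 0.29, 16.08 and 54.35 TPM in YS lines 1, 2 and 3, 17.37, 17.47 and 50.36 TPM in the FL lines and at most 0.86 TPM in BM lines. Its highest values were thus in YS line 3 and FL line 3, but FL line 1 was no higher than FL line 2. Pecam1, another endothelial marker, went the other way, with 4.91 and 8.17 TPM in YS lines 1 and 2 against 0.29 TPM in YS line 3 and at most 0.25 TPM in FL lines. The part of these markers in the line pattern was not tested.

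**Figure D4:**
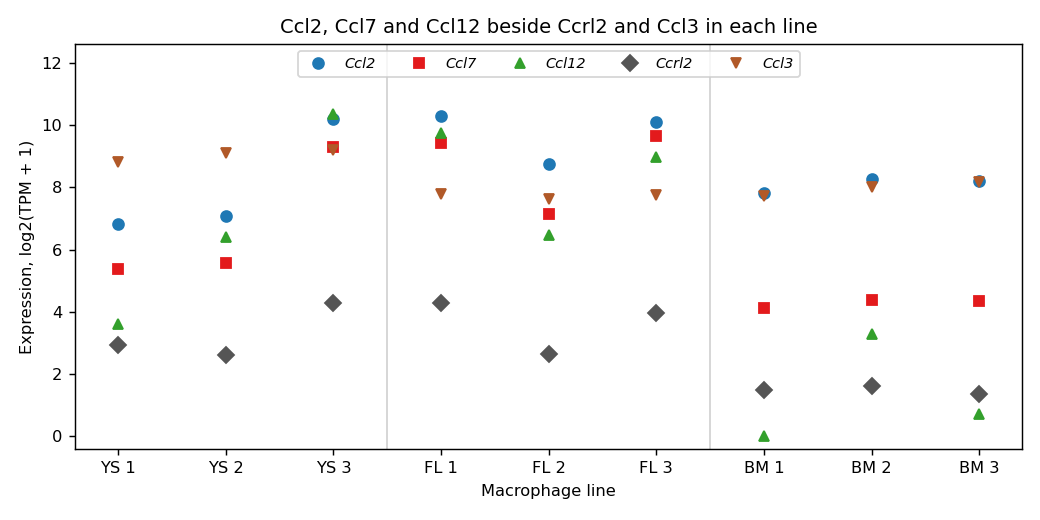
Each point is the log2(TPM + 1) of a gene in 1 of the 9 macrophage lines, for Ccl2, Ccl7 and Ccl12, the receptor gene Ccrl2 and, for contrast, Ccl3. Ccl2, Ccl7, Ccl12 and Ccrl2 are high in YS line 3, FL line 1 and FL line 3, while Ccl3 has a within-group SD of only 0.18.

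Ccl8 was the exception among the monocyte chemoattractant genes. Its values above 0 were 0.39 TPM in YS line 3, 0.36 TPM in FL line 1 and 0.29 TPM in FL line 2, with the other 6 lines listed at 0, so it was below the filter. In a fit with no filter it was tested and called in no comparison. In the RefSeq order of chromosome 11 the genes run Ccl2, Ccl7, Ccl11, Gm38913, Ccl12, Ccl8 and Ccl1. Ccl11, an eotaxin gene that lies between Ccl7 and Ccl12, did not exceed 0.44 TPM, and Ccl1 was at 0 in all lines. High and near-silent genes were thus mixed along the same cluster, and Ccl8 lay directly beside Ccl12, which reached 1317 TPM in YS line 3. To set this pair side by side, the 250 bases before the start of each gene are given from RefSeq on GRCm38.p6, 5′ to 3′ in the direction of the gene, for Ccl12 at chr11:82101595-82101844 on the plus strand and for Ccl8 at chr11:82114935-82115184 on the plus strand. Capitals mark matches on either strand to TATAAA and to GAGGAA, the core that the macrophage factor PU.1 prefers.
Ccl12: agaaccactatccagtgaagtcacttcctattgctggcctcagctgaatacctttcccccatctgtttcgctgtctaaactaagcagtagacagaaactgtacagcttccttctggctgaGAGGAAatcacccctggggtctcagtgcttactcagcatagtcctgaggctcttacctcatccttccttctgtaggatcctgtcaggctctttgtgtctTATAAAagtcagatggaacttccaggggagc
Ccl8: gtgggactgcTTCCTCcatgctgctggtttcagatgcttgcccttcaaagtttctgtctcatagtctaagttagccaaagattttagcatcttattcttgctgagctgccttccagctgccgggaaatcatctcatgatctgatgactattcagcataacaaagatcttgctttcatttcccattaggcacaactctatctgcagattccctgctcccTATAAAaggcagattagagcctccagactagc

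Both promoters had TATAAA on the gene's strand, 31 bases before the start in Ccl12 and 32 in Ccl8, a motif held by 12.4% of 32851 promoter stretches of this length. Both also had GAGGAA, held by 23.3%, at 130 bases before the start in Ccl12 and 240 in Ccl8. Neither had a match to the NF-kB consensus (held by 3.9% of promoters), to TGANTCA of AP-1 (6.75%), to TTCNNNGAA of STAT factors (7.02%) or to GAAANNGAA of interferon regulatory factors (7.13%). The 250 bases of Ccl12 and Ccl8 were 50.6% identical in a global alignment, where the other 9 pairs among the promoters of Ccl3, Ccl6, Ccl8, Ccl9 and Ccl12 were between 36.6% and 48.5% identical. So the searched letters did not set the highly expressed gene apart from the near-silent one in this window.

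Ccl5 was higher in the embryo-derived lines, with a wide spread in each group. It was 60.97, 137.89 and 263.21 TPM in YS lines 1, 2 and 3, 174.49, 16.63 and 62.19 TPM in the FL lines and 1.27, 20.27 and 2.54 TPM in BM lines. YS lines were above all BM lines, and FL line 2 lay below BM line 2. On the log2(TPM + 1) scale the difference from BM lines was 4.57 in YS lines (2.23 to 6.90, adjusted p = 0.0142 in limma) and 3.39 in FL lines (1.05 to 5.72, adjusted p = 0.0501). The call for FL lines was lost without FL line 1 (2.59), FL line 3 (3.33), BM line 1 (2.74) or BM line 3 (3.06), with adjusted p of 0.116 to 0.171, and the value was 4.25 without FL line 2. The call for YS lines held without any 1 line, at 3.92 without BM line 1. YS and FL lines differed by 1.18 (-1.16 to 3.52, adjusted p = 0.491).

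BM line 2 stood apart from the other BM lines in several genes, and Ccl5 and Ccl12 were among them. In BM line 2 Ccl5 was 20.27 TPM and Ccl12 was 8.85 TPM, while BM lines 1 and 3 were at or below 2.54 TPM for both genes. Fcgr1, Kdr and Pf4 were also highest in BM line 2 among the BM lines, with 42.1, 0.86 and 392.57 TPM. Without BM line 2, the log2 difference of Ccl5 was 5.54 in YS (adjusted p = 0.0093 in limma) and 4.36 in FL lines (adjusted p = 0.0225), that of Ccl12 was 6.43 (adjusted p = 0.0437) and 8.03 (adjusted p = 0.0254), and the counts of called chemokine genes were again 6 and 5.

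Ccl6 and Ccl9, neighbours in the second cluster on chromosome 11 and both ligands of Ccr1, did not share a pattern: Ccl6 was called higher in YS and FL than in BM lines, and Ccl9 was called in no comparison. Ccl6 was 26.09, 26.38 and 20.09 TPM in YS lines 1, 2 and 3, 20.06, 61.01 and 46.63 TPM in the FL lines and 8.18, 10.2 and 6.94 TPM in BM lines. All BM lines were below all others, by 2.68-fold against YS lines (1.52 to 4.70, adjusted p = 0.0209 in limma) and 4.24-fold against FL lines (2.41 to 7.45, adjusted p = 0.00521). YS and FL lines differed by -0.66 on the log2 scale (-1.48 to 0.15, adjusted p = 0.275), which was called without FL line 1 (-1.12, adjusted p = 0.0393). FL line 1, the FL line lowest in Ccl6, was the one highest in Ccl2, Ccl5 and Ccl12.

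Ccl9 was the one gene of the 9 whose mean was highest in BM lines. It was 246.32, 494.93 and 526.73 TPM in YS lines 1, 2 and 3, 273.1, 269.6 and 344.77 TPM in the FL lines and 545.76, 483.45 and 582.53 TPM in BM lines. FL lines lay below every BM line. The log2 difference of -0.86 (-1.47 to -0.25, adjusted p = 0.0538 in limma) passed the false discovery rate but was less than 2-fold, so it was not called. YS against BM lines gave -0.42 (-1.03 to 0.19, adjusted p = 0.268) and YS against FL lines 0.45 (-0.17 to 1.06, adjusted p = 0.323). In the RefSeq order this cluster runs Heatr9, Gm23247, Ccl5, Ccl16-ps, Ccl9, E230016K23Rik, Ccl6, Gm38933, Rpl9-ps1, Ccl3 and Ccl4, in which Heatr9 did not exceed 1.26 TPM and the non-coding E230016K23Rik, which overlaps Ccl6, did not exceed 0.75 TPM. TPM of Ccl6 divided by Ccl9 was at most 0.0211 in BM lines and at least 0.0381 in the others.

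The promoters of Ccl3 and Ccl9 are shown as those of the second cluster's genes that led in YS lines 1 and 2 and in BM lines. They are again 250 bases before the start from RefSeq on GRCm38.p6, 5′ to 3′ in the direction of the gene, for Ccl3 at chr11:83649379-83649628 and for Ccl9 at chr11:83578637-83578886, both on the minus strand. Capitals mark the motifs searched above.
Ccl3: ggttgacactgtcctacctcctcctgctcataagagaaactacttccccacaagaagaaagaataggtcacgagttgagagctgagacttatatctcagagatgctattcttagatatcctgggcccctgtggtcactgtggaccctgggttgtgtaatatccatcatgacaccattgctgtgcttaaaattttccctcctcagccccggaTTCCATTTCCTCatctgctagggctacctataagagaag
Ccl9: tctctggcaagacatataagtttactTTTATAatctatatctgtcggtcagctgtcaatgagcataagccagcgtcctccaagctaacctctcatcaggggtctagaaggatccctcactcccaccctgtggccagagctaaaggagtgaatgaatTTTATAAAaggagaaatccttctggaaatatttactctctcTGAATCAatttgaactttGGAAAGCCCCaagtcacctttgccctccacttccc

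Ccl9 was the only one of the 5 promoters searched with a match to the NF-kB consensus, on the opposite strand 35 bases before the start. It also held TGANTCA at 53 bases and TATAAA at 224, 94 and 92 bases before the start, the last 2 of which overlap. Ccl3 had overlapping matches to GAAANNGAA and GAGGAA on the opposite strand at 39 and 33 bases before the start. Ccl6 had no match to any of the 6 motifs in this window.

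Ccl24 was the lowest of the genes that passed the filter. It was 6.19, 1.82 and 3.54 TPM in YS lines 1, 2 and 3, 3.4, 0.85 and 1.22 TPM in the FL lines and 0.36, 0.11 and 0.24 TPM in BM lines. BM lines were below all others and under 1 TPM, so Ccl24 passed the filter through the other groups only. The difference from BM lines was 1.87 in YS lines (0.93 to 2.82, adjusted p = 0.0135 in limma) and 1.09 in FL lines (0.15 to 2.04, adjusted p = 0.102), on the log2(TPM + 1) scale that understates changes at this level. The YS value was 0.85 with a pseudocount of 4, under 2-fold, and the FL value was 2.35 with a pseudocount of 0.1 and then called (adjusted p = 0.0365). YS and FL lines differed by 0.78 (-0.16 to 1.73, adjusted p = 0.268). Ccl24 lies on chromosome 5 beside Ccl26, which was at 0 in all lines, and was highest in YS line 1, the YS line with the least Ccl2, Ccl5, Ccl7 and Ccl12.

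**Figure D5:**
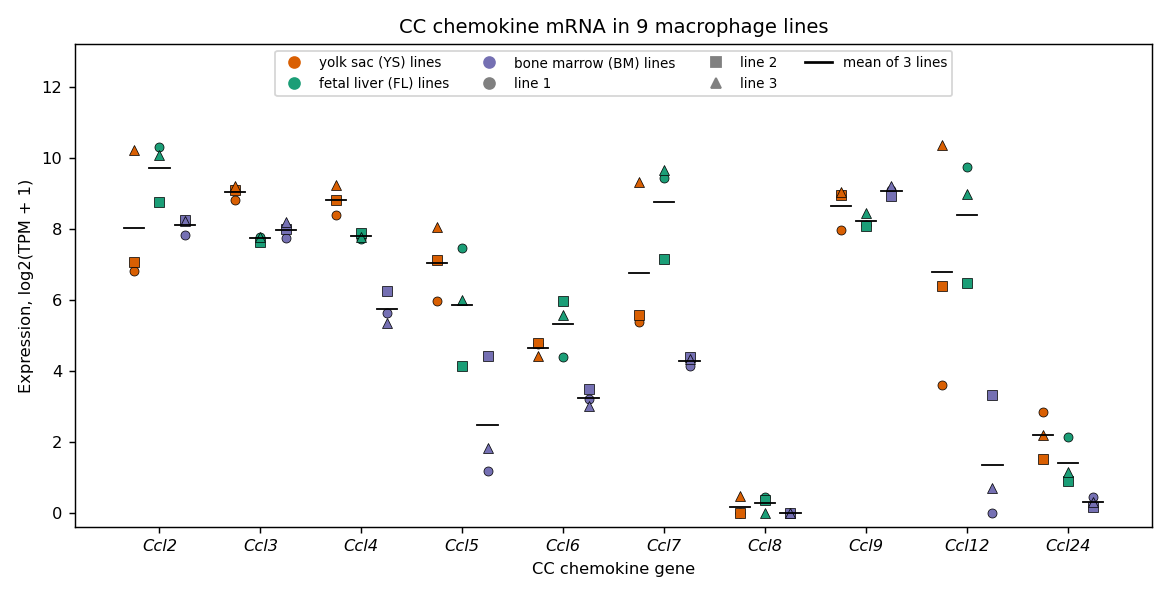
Points give log2(TPM + 1) of the 10 CC chemokine genes in each macrophage line, coloured by group and shaped by line number, with a bar at the mean of the 3 lines. Ccl4 separates the 3 groups, Ccl12 ranges from 0 to 1317 TPM before the log, and Ccl8 does not exceed 0.39 TPM.

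The other CC chemokine genes were scarce. Of 14 further ligand genes, 6 were at 0 in every line and 3 passed the filter, Ccl22, Ccl25 and Ccl27a, none of which was called in any comparison. Without FL line 1, where the other FL lines are at 0, Ccl22 was called lower in FL than in BM lines and higher in YS than in FL lines. Ccl25, a ligand that guides lymphocytes to thymus and gut, was between 3.8 and 11.95 TPM in YS, 9.91 and 11.17 TPM in FL and 5.42 and 6.04 TPM in BM lines. Ccl22, a ligand made by activated macrophages and dendritic cells, did not exceed 3.48 TPM, and Ccl27a did not exceed 5.53 TPM.

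Among the listed receptor genes of the CC family, those that were called were higher in the embryo-derived lines. Of 14 receptor genes, 5 passed the filter (Ccr1, Ccr2, Ccr10, Ccr1l1 and Ccrl2), and 3 were called higher in YS than in BM lines (Ccr1, Ccr2 and Ccrl2) and 2 in FL than in BM lines (Ccr1l1 and Ccrl2), with none lower, where 7.57% and 6.01% of all genes were called higher. Ccr1, Ccr2 and Ccr1l1 passed the filter through YS and FL lines only, as no BM line reached 1 TPM. The direction of their calls against BM lines was therefore largely set by the filter. Between YS and FL lines limma called none of the 5, and none had an unadjusted p under 0.05. Ccr1, the receptor of Ccl3, Ccl5, Ccl6 and Ccl9, was 7.78, 3.53 and 58.24 TPM in YS lines 1, 2 and 3, 7.72, 0.37 and 5.58 TPM in the FL lines and 0.52, 0.69 and 0.58 TPM in BM lines. YS line 3 was the highest by far, and the YS against BM log2 difference was 3.06 (0.88 to 5.24, adjusted p = 0.0442 in limma). That call was lost without BM line 1 (3.03, adjusted p = 0.117) or BM line 3 (3.05, adjusted p = 0.116) with little change in the value, while it held at 1.98 without YS line 3 and at 3.84 without YS line 2.

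Ccr2, the receptor of Ccl2, Ccl7 and Ccl12, was low, with 5.94, 0.8 and 1.19 TPM in YS lines, 1.63, 0.4 and 0.78 TPM in the FL lines and 0.16, 0.28 and 0.04 TPM in BM lines. Its YS against BM log2 difference was 1.38 (0.26 to 2.51, adjusted p = 0.0679 in limma), a call that was lost without any 1 BM line (1.31 to 1.46, adjusted p of 0.125 to 0.177) with little change in the value. The call was also lost with a pseudocount of 4 and with quantile normalization. Ccr2 reached 1 TPM only in YS lines 1 and 3 and FL line 1. It fell below the filter, and was not tested, without any of these lines or with only the YS and BM lines in the fit. The count of receptors called in YS against BM lines was 1 without BM line 1, 2 without BM line 2 and 0 without BM line 3. Ccr3, the receptor of Ccl24, did not exceed 1.25 TPM, and Ackr2, a receptor that removes CC chemokines from the surroundings, did not exceed 0.09 TPM. Ccr1l1 was 0.6 to 1.37 TPM in YS, 1.3 to 2.41 TPM in FL and at most 0.1 TPM in BM lines.

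Ccrl2, an atypical receptor that binds chemerin, shared the line pattern of Ccl2, Ccl7 and Ccl12. It was 6.6, 5.06 and 18.54 TPM in YS lines 1, 2 and 3, 18.43, 5.19 and 14.46 TPM in the FL lines and 1.8, 2.09 and 1.55 TPM in BM lines. Its highest lines were YS line 3, FL line 1 and FL line 3, as for the 3 ligands. The same lines were highest in Ccr1l1, at 1.37, 2.41 and 1.92 TPM, with FL line 2 close to YS line 3 at 1.3 TPM. Ccrl2 was higher by 1.78 in YS (0.62 to 2.95, adjusted p = 0.0332 in limma) and by 2.13 in FL than in BM lines (0.97 to 3.30, adjusted p = 0.0207) on the log2 scale, and the YS call was lost without BM line 3 (adjusted p = 0.103). Pearson's r of Ccrl2 over the 9 lines was 0.949 with Ccl7 and 0.938 with Ccl12, which placed it 14th and 38th in likeness among 11752 other genes, and 0.696 with Ccl2. These r are descriptions over lines that also differ by group.

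By the same measure, 21 of the 11752 other genes had an r of at least 0.9 with Ccl2 and 413 with Ccl24, and the other members lay between. The 3 genes most like each member over the 9 lines were Pdzd11, Tnfrsf1a and Map2k2 for Ccl2 (r of 0.974, 0.969 and 0.949), Tmsb10, Ptges3l and Gstm5 for Ccl7 (0.979 to 0.978) and Ccnyl1, Rcbtb1 and Cdk18 for Ccl12 (0.986 to 0.971). They were Phf11a, Zbp1 and Smim4 for Ccl5 (0.986 to 0.98), Gon4l, Haao and Gm16845 for Ccl3 (0.96 to 0.952), and Fam46a, A830010M20Rik and 9930111J21Rik2 for Ccl4 (0.989 to 0.98). For Ccl6 they were Ctla2b, 4930447K03Rik and Kdm6a (0.979 to 0.969), for Ccl9 Lrp10, Sema5a and C630043F03Rik (0.979 to 0.953), and for Ccl24 Ndufaf6, Elmsan1 and Net1 (0.99 to 0.981). Zbp1, most like Ccl5 after Phf11a, is a sensor induced by interferon, and Tnfrsf1a, most like Ccl2 after Pdzd11, encodes a receptor of TNF. A link of these chemokine genes to interferon or TNF was not tested. Between members, r was highest for Ccl7 and Ccl12 (0.938), Ccl4 and Ccl5 (0.892), Ccl5 and Ccl12 (0.879) and Ccl2 and Ccl7 (0.85), and lowest for Ccl6 and Ccl9 (-0.70). After the group means were removed, r was 0.984 for Ccl2 and Ccl7 and 0.863 for Ccl7 and Ccl12, but 0.288 for Ccl3 and Ccl4.

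Against BM lines, the genes of the NF-kB system that were called were lower in the embryo-derived lines, where the called chemokine genes were higher. A link between these differences was not tested. All 12 listed genes passed the filter, and none was called higher than in BM lines, 2 were called lower in YS lines (Nfkbie and Tnfaip3) and 4 lower in FL lines (Nfkb2, Nfkbie, Nfkbid and Bcl3), where 5.22% and 4.30% of all genes were called lower. Their median log2 difference was -0.42 in YS and -0.82 in FL against BM lines, beside 0.11 and 0.09 over all tested genes. Tnfaip3, an inhibitor of NF-kB that is also its target, was lower by 1.44 in YS than in BM lines on the log2 scale (adjusted p = 0.022 in limma). Nfkbie, an inhibitor that holds NF-kB in the cytoplasm, was 10.69 to 23.18 TPM in YS, 12.01 to 19.43 TPM in FL and 38.86 to 42.06 TPM in BM lines, and its YS call was lost without YS line 1, at -0.98 and so under 2-fold. Nfkb2, which encodes a subunit, was 24.94 to 32.19 TPM in FL and 66.31 to 72.03 TPM in BM lines (log2 difference -1.27, adjusted p = 0.00114 in limma). Bcl3, a nuclear co-regulator, was 0.36, 2.63 and 4.96 TPM in FL lines 1, 2 and 3 and between 13.77 and 21.28 TPM in all YS and BM lines. It was the 1 gene of the list called between YS and FL lines, where 1.95% of all genes were called higher and 1.85% lower. Bcl3 was higher in YS by 2.45 (adjusted p = 0.0291 in limma). Without FL line 1 its value was 1.86 there and -2.13 in FL against BM lines, both called, and with only the YS and FL lines in the fit the YS against FL call was lost (adjusted p = 0.124) at the same value. Rela was called in no comparison, as its differences were under 2-fold. It was lower than in BM lines by 0.50 in YS (adjusted p = 0.00868 in limma) and 0.77 in FL lines (adjusted p = 0.00162), without overlap. In YS against BM lines 3 of the 12 genes had positive differences. Among these were Nfkbib and Nfkbiz (0.40 and 0.70, adjusted p = 0.0368 and 0.0493 in limma), also under 2-fold.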

How the data were processed

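RNA of the 9 lines had been read as directional poly(A) libraries with single reads of 75 nt. The authors deposited 1 table of TPM for 24411 gene symbols, and per the labels their processing notes name Trim Galore 0.6.6, STAR 2.7.9a and RSEM 1.3.3, with the genome build and annotation not given in the sources used here. The authors tested raw counts with DESeq2, which were not used here, and their thresholds were kept. The members and gene lists were chosen with earlier results of these data known.

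The deposited TPM were taken to log2(TPM + 1). The 11753 genes that reached 1 TPM in 3 or more of the 9 lines were tested, and groups were compared in limma 3.58.1 (R 4.3.3) by a linear model over all lines with empirical Bayes moderation, an intensity trend and Benjamini-Hochberg adjustment over all tested genes. Intervals are 95%. The fit was tested on simulated data. For 3 lines against 3, no exact permutation test can go below p = 0.1, so none was used. Named genes were all 10 members, the called genes of lists of CC ligands, receptors and NF-kB genes (at most 4 of each per comparison), 4 fixed receptors, the members' neighbours and the 3 genes most like each member. Markers and the other genes named from these lists were chosen after their values were seen. A further receptor gene of the list is not reported here.

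All 10 symbols matched RefSeq genes of GRCm38.p6, and 5 (Ccl3, Ccl6, Ccl8, Ccl9 and Ccl12) matched its promoter table. Ccl2, Ccl4, Ccl5, Ccl7 and Ccl24 were not matched there. Motifs were searched on both strands in 250 bases before the start. No stretch of 75 bases of the members' GENCODE M21 transcripts occurred in a transcript of another gene on either strand. Pairs of promoters were aligned with Biopython 1.88. Alternatives changed the pseudocount, the filter, the scaling, the variance trend, the thresholds, the libraries in the fit and the replicate number as a block. The same settings for the called genes of the other lists were added after seeing the data.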

Additional observations from a re-analysis of the deposited data

How the results depend on the processing

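The 27 log2 differences of the 9 tested chemokine genes kept their direction and side of the threshold in 447 of 482 alternative fits, lost a call in 16, gained one in 16 and turned direction in 3. Fits that changed only the filter, the variance trend, the block or the lines outside the comparison left each log2 difference the same by construction. In these fits no turn of direction was possible, so the tally overstates how far direction was tried. The 3 turns were all of Ccl2 in YS against BM lines, whose values without 1 line ranged from -1.15 to 0.54, with 0.54 without YS line 1, 0.42 without YS line 2 and 0.02 without BM line 2. The number of called chemokine genes ranged from 4 to 7 in YS against BM lines and from 4 to 6 in FL against BM lines when 1 line was left out. In YS against FL lines it ranged from 1 to 3, and was 1 without FL line 2, FL line 3 or BM line 1, 1 with only the 6 lines compared, where the fit has fewer samples, and 1 at a false discovery rate of 0.05, while Ccl3 was called in each fit. With the replicate number as a block, 7, 6 and 2 chemokine genes were called in the 3 comparisons, with Ccl7 added in YS and Ccl24 in FL against BM lines. Same-numbered lines did not deviate together over all tested genes (correlations of -0.12 to 0.09 over 9 pairs, none over 0.1). This cannot show whether they shared a preparation or run, which was not given in the sources used here.

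Ccl24 in FL against BM lines was also called with a pseudocount of 0.1, with no intensity trend, and without YS line 1, YS line 2 or FL line 2. Quantile normalization moved the median log2 difference of all genes in YS against BM lines from 0.11 to -0.02, and its calls were 712 higher and 783 lower in place of 890 and 614, and 597 and 598 in place of 706 and 505 in FL against BM lines, where it changed no chemokine call. Median-of-ratios scaling gave 765 higher and 741 lower, and 623 and 583. Between YS and FL lines, 229 genes were called higher and 217 lower, but 144 and 136 with a pseudocount of 4, 139 and 185 with a filter of 5 TPM and 44 and 32 with only the 6 lines compared. Without 1 line, the total was lowest without FL line 2 (106 and 69) or FL line 3 (99 and 79). Totals in YS against BM lines were 612 and 419 with a pseudocount of 4, and 480 and 363 in FL against BM lines. A filter of 5 TPM removed Ccl24. Without depth, values near 0 such as those of Ccl8, and of Ccl12 in BM lines, have no detection limit.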
